A study of Mus musculus with 2 samples.

Results

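The serine protease genes of the chymase locus were followed in cultures of mouse mucosal mast cells at day 20 of differentiation and at day 4. The members were Cma1, Mcpt1, Mcpt2, Mcpt4, Mcpt8, Ctsg and Gzmb, chosen as genes of the locus, and they were found by matching the accession or symbol of each gene probe. All 7 were on the array with 1 probe and 1 spot each, among 18073 genes tested. Both days were grown in medium with IL-3, IL-9, SCF (stem cell factor) and TGF-betaI, so the days differ in time and not in added cytokines, and the labels do not name the starting cells. Total RNA of the days was hybridised together on each of 2 two-colour Agilent arrays. On array 1 day 20 carried Cy5 and day 4 carried Cy3, and on array 2 the dyes were exchanged. Each labelled sample pooled 3 samples, and the pools of the arrays differed in origin, so every value below has n = 2. The labels call the arrays biological replicates without saying whether the origins were animals or cultures. The p-values rest on the spread between these arrays only, and mostly on that spread over all genes tested rather than each gene's own.

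The locus holds a row of related genes on mouse chromosome 14. Their products are serine proteases made as inactive precursors, activated by removal of a short leader and packed into secretory granules on sulphated proteoglycan. The chymotrypsin-like chymases among them cut mainly after aromatic residues. In mice, different mast cell types and other blood cells use different genes of the row: Mcpt1 and Mcpt2 are the proteases of mucosal mast cells, Cma1 (also called Mcpt5, the name in the array's description) and Mcpt4 are typical of connective tissue mast cells, Mcpt8 marks basophils, Ctsg encodes cathepsin G of neutrophil granules, and Gzmb encodes granzyme B, which cuts after aspartate and is best known from cytotoxic lymphocytes.

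Of 21318 gene spots per channel, the scanner software called 93.1% (array 1) and 90.5% (array 2) well above background at day 20, against 96.2% and 80.0% at day 4. The log2 ratios of a gene differed between the arrays by a median of 0.16, with a 95th percentile of 0.55. A pixel at the scanner's ceiling has no further range, and 6 gene spots at day 20 and 3 at day 4 were saturated on each array. Levels below are normalized intensities per channel on a linear scale. They depend on each probe's own brightness, so they are compared between days for 1 gene and not between genes. RNA of whole cultures was measured, so more cells of a type and more RNA per cell cannot be told apart.

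The promoter sequences of 4 members are shown because Mcpt1 and Mcpt4 are close relatives with different ratios, Cma1 had the highest ratio and Mcpt8 was the member that fell. They are RefSeq sequences of mouse assembly GRCm38.p6, 250 bases before each gene's start, written 5′ to 3′ on the gene's own strand. Of the 7 members, 6 had an entry in the table used, and Mcpt2 is named only. The windows lie at chr14:56017714-56017963 on the plus strand for Mcpt1, and on the minus strand at chr14:56062311-56062560 for Mcpt4, chr14:55944676-55944925 for Cma1 and chr14:56085198-56085447 for Mcpt8. Capitals mark matches, on either strand, to 5 short motifs: TATAAA (the TATA box), GATAA (the core read by GATA factors), TGTGGT (the core read by RUNX factors), CACGTG (an E-box) and TTCNNNGAA (the core read by STAT5). A match on the opposite strand appears in capitals as its reverse complement.
Mcpt1: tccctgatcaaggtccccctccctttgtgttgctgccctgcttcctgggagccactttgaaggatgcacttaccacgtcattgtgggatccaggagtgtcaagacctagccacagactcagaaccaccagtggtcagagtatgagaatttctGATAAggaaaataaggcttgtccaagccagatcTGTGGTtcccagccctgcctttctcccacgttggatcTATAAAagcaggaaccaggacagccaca
Mcpt4: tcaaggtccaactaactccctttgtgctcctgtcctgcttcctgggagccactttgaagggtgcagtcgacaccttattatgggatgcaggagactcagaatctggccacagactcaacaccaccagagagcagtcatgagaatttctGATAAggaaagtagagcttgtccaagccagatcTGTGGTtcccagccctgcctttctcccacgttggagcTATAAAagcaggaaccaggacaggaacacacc
Cma1: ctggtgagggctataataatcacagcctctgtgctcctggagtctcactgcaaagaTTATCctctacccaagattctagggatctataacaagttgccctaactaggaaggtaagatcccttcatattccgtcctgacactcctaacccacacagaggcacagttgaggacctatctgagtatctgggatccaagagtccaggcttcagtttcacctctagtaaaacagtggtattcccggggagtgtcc
Mcpt8: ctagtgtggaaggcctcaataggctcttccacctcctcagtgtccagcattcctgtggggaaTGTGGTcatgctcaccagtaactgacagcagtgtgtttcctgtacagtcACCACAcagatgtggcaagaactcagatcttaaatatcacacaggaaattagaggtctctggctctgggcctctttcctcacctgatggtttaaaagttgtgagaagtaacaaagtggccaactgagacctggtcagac

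The promoters of Mcpt1 and Mcpt4 were the most alike of the 15 pairs of members. They had 207 identical, 39 mismatched and 8 gapped positions in 254 aligned columns, which is 81.5% identity, while the other 14 pairs had between 44.7% and 51.3%. Both hold TATAAA, which begins 28 bases before the start of Mcpt1 and 32 bases before that of Mcpt4. Both also hold GATAA, at 98 and 102 bases, and TGTGGT, at 65 and 69 bases. Among 32851 promoter windows of the same length in the table, 12.4% hold TATAAA, 22.6% hold GATAA and 14% hold TGTGGT. In Cma1 the search found GATAA on the opposite strand at 194 bases and none of the other motifs, and in Mcpt8 it found TGTGGT at 188 bases and, on the opposite strand, at 139 bases. Gzmb, not printed, holds TGTGGT at 93 and 34 bases. Ctsg holds TATAAA at 237 and TGTGGT at 79 bases on the opposite strand and TTCNNNGAA, present in 7.02% of all windows, at 189 bases. None of the 6 windows holds CACGTG, which 6.02% of all windows hold. A match describes letters in this window and does not show that a factor binds there.

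At day 20, Cma1, Mcpt2, Mcpt1 and Gzmb were higher than at day 4, Mcpt8 was lower, and Mcpt4 and Ctsg did not pass the test. The test was limma's moderated test of the mean log2 ratio against 0, called at a Benjamini-Hochberg adjusted p below 0.05 over all genes tested. Thus 4 of 7 members were higher, where 7.83% of all genes tested were, and 1 of 7 was lower, where 9.29% were. In either direction 5 of 7 passed, where 17.1% of all genes did. The day 20 and day 4 intensities did not overlap in 5 of 7 members, against 29.4% of all genes tested. The members' median log2 ratio was 1.11, against -0.01 over all genes tested. All 7 members were well above background in all 4 channels, and none of their spots was marked as an outlier.

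**Figure D1:**
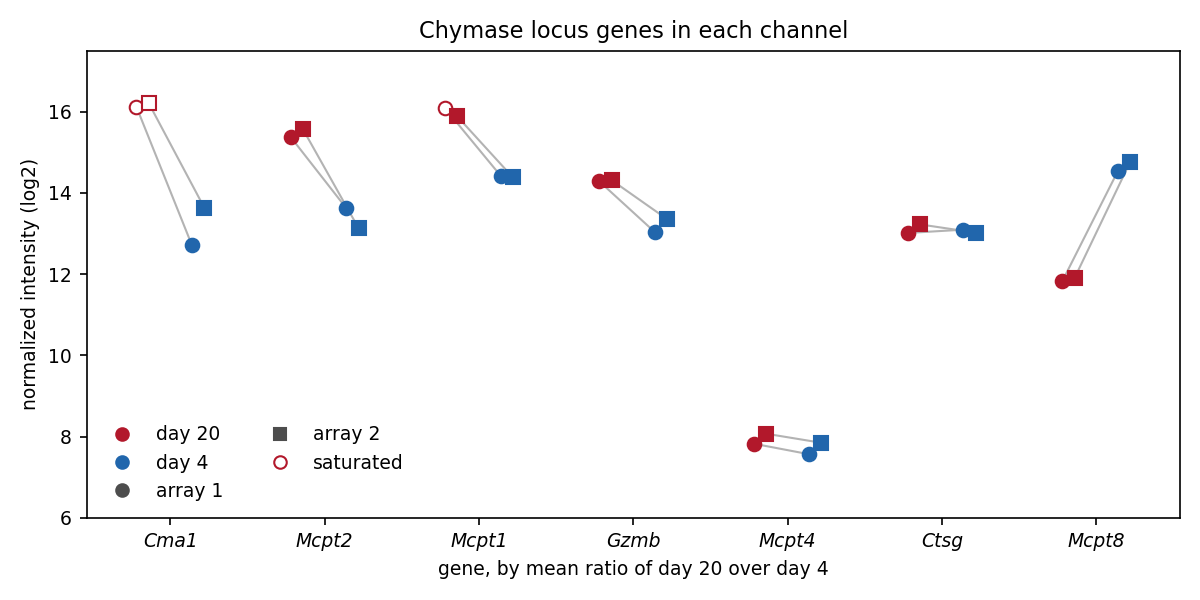
Normalized intensity (log2) of each member in the day 20 (red, left) and day 4 (blue, right) channels, with circles for array 1, squares for array 2, open symbols for saturated spots and a line joining the channels of 1 array. The day 20 points of Cma1, Mcpt2, Mcpt1 and Gzmb lie above both day 4 points, those of Mcpt8 lie below both, and those of Mcpt4 and Ctsg overlap with day 4; heights are not comparable between genes.

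Mcpt1 encodes the protease that mucosal mast cells release into the gut lumen and blood during worm infection of mice. Its normalized intensity was 69504 and 60356 in the day 20 channels of arrays 1 and 2, against 22017 and 21360 in the day 4 channels. Both day 20 values lay above both day 4 values. The log2 ratio was 1.66 on array 1 and 1.50 on array 2, a mean of 1.58 ± 0.11 (SD, n = 2) or 2.99-fold (limma adjusted p = 5.89e-07). The day 20 spot of array 1 was saturated in 63 of 63 pixels, and that of array 2 in 0 of 61 pixels, so the ratio of array 1, and with it the mean, is a lower bound. The unsaturated array alone gave 2.83-fold.

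Mcpt2 encodes the other protease of mucosal mast cells and lies next to Mcpt1. The day 20 channels gave normalized intensities of 42535 and 48492, against 12650 and 8979 in the day 4 channels. The days did not overlap, and no Mcpt2 spot was saturated. The mean log2 ratio was 2.09 ± 0.48 (SD, n = 2), or 4.26-fold (limma adjusted p = 4.48e-07). The arrays differed more than for most genes, with 1.75 on array 1 and 2.43 on array 2. This gap of 0.68 is above the 95th percentile of all genes tested. The p-value of Mcpt2 rests mostly on the smaller spread of all genes, and with median centring its limma adjusted p was 0.0224.

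Cma1 had the highest measured ratio of the members, and its measured mean log2 ratio ranked 5 among all genes tested. Ratios of Cma1 and of other genes saturated at day 20, such as Tpsab1, are lower bounds, so its true rank is not known. Normalized intensities of Cma1 were 71386 and 75881 in the day 20 channels, against 6724 and 12747 in the day 4 channels. Its day 20 spots were saturated on both arrays, in 63 of 63 and 62 of 62 pixels, so the ratio is a lower bound. With this processing and over both arrays, Cma1 was at least 7.95-fold higher at day 20 (limma adjusted p = 3.91e-08). Arrays 1 and 2 alone gave 10.6-fold and 5.95-fold, and with median centring the mean log2 ratio was 2.64. The log2 ratios were 3.41 and 2.57, with a mean of 2.99 ± 0.59 (SD, n = 2). With both day 20 spots at the ceiling, the mean signal before normalization was 65287 and 65307 at day 20, against 9268 and 11512 at day 4. The arrays' ratios differed by 0.83, above the 95th percentile of all genes tested, and at the ceiling a difference between the arrays at day 20 was not measurable. The p-value of Cma1 likewise rests mostly on the smaller spread of all genes, and with median centring its limma adjusted p was 0.00918.

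Gzmb was the granzyme among the members. Normalized intensities were 19965 and 20370 in the day 20 channels, against 8392 and 10459 in the day 4 channels. The days did not overlap, and the values of day 20 lay close together. The log2 ratio was 1.25 on array 1 and 0.96 on array 2, a mean of 1.11 ± 0.20 (SD, n = 2), or 2.15-fold (limma adjusted p = 1.86e-05). Of 8 tested T and NK cell markers, a list that holds no granzyme of the cluster, 0 were higher and 1 was lower, with a median log2 ratio of -0.04. Prf1, the pore-forming partner of granzyme B in those cells, had a log2 ratio of 0.01 ± 0.05 (SD, n = 2). Its probe was dim, at 91 and 96 at day 20 against 88 and 98 at day 4. Cd4 was well above background in 0 of 4 channels. The 1 marker that fell was Gzma, granzyme A, at -0.62 ± 0.51 (SD, n = 2, limma adjusted p = 0.00949), and it no longer passed without background subtraction (adjusted p = 0.153) or with median centring (adjusted p = 0.183). The summed normalized intensity of 11 T and NK cell markers was 1667 and 1421 at day 20, against 1653 and 1532 at day 4. Cd3e, with a marked spot on 1 array and not tested, gave 809 and 342 of these at day 20, against 678 and 425 at day 4. Its value was the largest in each channel, and the highest of the other markers was 168 (Cd2, day 4, array 2). With 1 marked probe and otherwise weak signals, the sums do not measure the amount of T and NK cells.

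Mcpt4 encodes the chymotrypsin-like chymase of connective tissue mast cells. Its normalized intensity was 227 and 269 in the day 20 channels, against 189 and 230 in the day 4 channels. The day 20 value of array 1 lay below the day 4 value of array 2, so the days overlapped. The log2 ratio was 0.26 and 0.22, a mean of 0.24 ± 0.03 (SD, n = 2), and it did not pass the test (limma adjusted p = 0.197). The ratio of Mcpt1, whose promoter is the most like that of Mcpt4 among the 6 members with an entry (Mcpt2 was not compared), was higher on both arrays. Mcpt1, Mcpt2 and Mcpt4 are close relatives, and how much signal their probes share was not tested.

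Ctsg encodes cathepsin G. Its probe gave normalized intensities of 8272 and 9567 in the day 20 channels, against 8749 and 8310 in the day 4 channels. The days overlapped, and the arrays gave opposite signs, -0.08 on array 1 and 0.20 on array 2. The mean log2 ratio of 0.06 ± 0.20 (SD, n = 2) did not pass the test (limma adjusted p = 0.954), and it was -0.20 with median centring. Of the other 11 neutrophil and precursor markers tested, 0 were higher and 8 were lower, with a median log2 ratio of -0.96. Among them, Mpo (myeloperoxidase) had -3.15 ± 0.15, Elane (neutrophil elastase) -0.88 ± 0.05 and Prtn3 (proteinase 3) -0.96 ± 0.19 (SD, n = 2 each). These share the primary granules of neutrophils with cathepsin G. The summed normalized intensity of the 11 markers other than Ctsg was 1126 and 1416 at day 20, against 8752 and 8979 at day 4. The part of neutrophil precursors in the Ctsg signal was not tested.

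Mcpt8 was the member that fell, and it ranked 8 among all falls. Its normalized intensity was 3614 and 3824 in the day 20 channels, against 23660 and 27702 in the day 4 channels. All values of day 20 lay far below those of day 4, and no spot was saturated. The log2 ratio was -2.71 on array 1 and -2.86 on array 2, a mean of -2.78 ± 0.10 (SD, n = 2), which is 6.89-fold lower at day 20 (limma adjusted p = 3.79e-09). No other gene used as a basophil marker was called lower: of 5 tested, 2 were higher and 0 were lower. Those that rose were Fcer1a, which binds IgE on both mast cells and basophils, at 2.11 ± 0.01, and Il6 at 0.50 ± 0.23 (SD, n = 2 each). Il6 no longer passed with 4 of the alternative settings, where its adjusted p lay between 0.0729 and 0.384. Itga2 (CD49b) had -0.09 ± 0.16, Ccr3 had -0.09 ± 0.15 and Cd69 had 0.19 ± 0.16, and none of these passed. The Itga2 probe was dim, at 64 and 70 at day 20 against 63 and 81 at day 4, so a fall could hardly be measured. Cd200r3 had a marked spot on 1 array and was not tested. With marked spots kept, the log2 ratio of Cd200r3 was 1.01. Prss34, also on the basophil list, had no named probe. Hdc, lower at -1.28 ± 0.14 (SD, n = 2), was counted on the mast cell list only. The summed normalized intensity of 6 basophil markers other than Mcpt8 was 42223 and 38662 at day 20, against 12471 and 10889 at day 4. Most of it was Fcer1a, which is also on the mast cell list, and the other 5 markers summed to 4767 and 4132 at day 20, against 3853 and 2827 at day 4. Such sums add probes of different brightness and only describe a list. What part basophils had in the Mcpt8 signal was not tested.

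**Figure D2:**
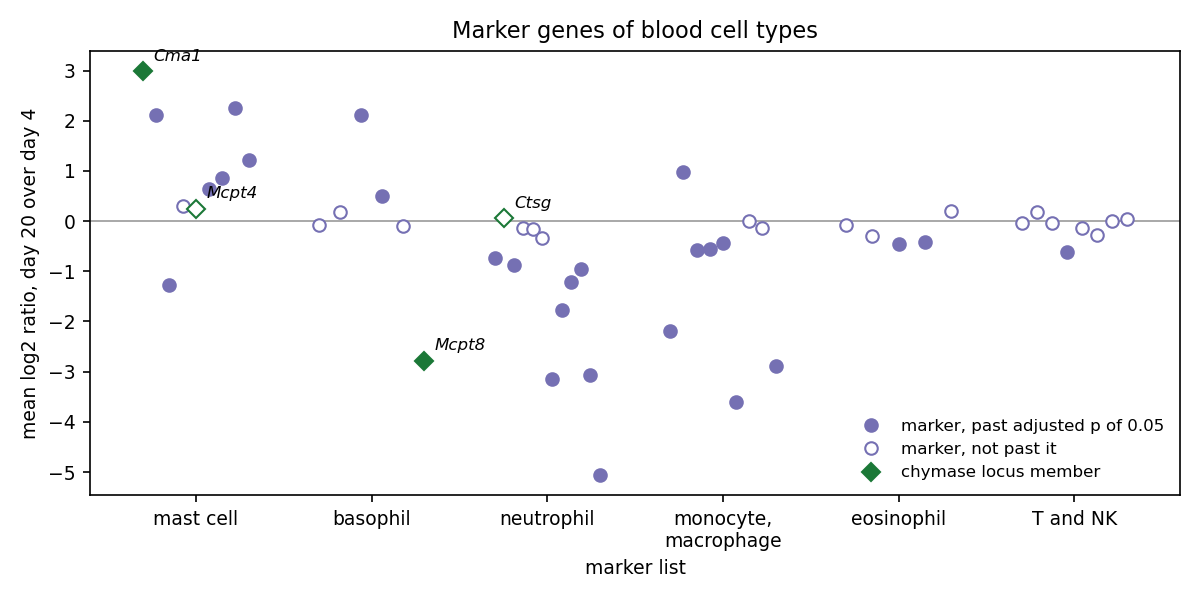
Mean log2 ratio of day 20 over day 4 for each tested gene of 6 marker lists, filled where the adjusted p was below 0.05, with members of the chymase locus as green diamonds. Mcpt8 lies at -2.78 while the other basophil markers lie at or above -0.09, and Ctsg lies at 0.06 above the other 11 neutrophil markers.

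The mast cell markers bear on the label of the culture. Of 7 tested besides Cma1 and Mcpt4, 5 were higher and 1 was lower, with a median log2 ratio of 0.85. The summed normalized intensity of 9 such markers was 217985 and 232573 at day 20, against 52149 and 79498 at day 4. Tpsab1 and Cpa3, both saturated at day 20 on both arrays, carried most of the day 20 sums. The other 7 summed to 73670 and 78851 at day 20, against 28252 and 32331 at day 4. Hdc, which makes histamine, was the marker that fell, at -1.28 ± 0.14 (SD, n = 2, limma adjusted p = 3.93e-06). Kit, the receptor of stem cell factor, had a marked spot on 1 array and was not tested. With marked spots kept, the log2 ratio of Kit was 1.60 ± 0.12 (SD, n = 2). Of 9 monocyte and macrophage markers 1 was higher and 6 were lower, and of 5 eosinophil markers 0 were higher and 2 were lower, so marker genes of other cell types changed beside the members, and their part in the members' ratios was not tested.

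As measured, the members' ratios ran on both arrays from Cma1 through Mcpt2, Mcpt1, Gzmb, Mcpt4 and Ctsg to Mcpt8. The order of Mcpt2 and Mcpt1 on array 1 was not measurable, since Mcpt2 led by 0.09 there and the ratio of Mcpt1 was a lower bound. On array 2, where neither was saturated, Mcpt2 led by 0.93. Cma1, a lower bound on both arrays, exceeded Mcpt2 by at least 1.66 on array 1 and at least 0.14 on array 2. Mcpt1 exceeded Gzmb by at least 0.41 on array 1 and by 0.54 on array 2. Gzmb exceeded Mcpt4 by 0.86 ± 0.18 and Ctsg exceeded Mcpt8 by 2.84 ± 0.30 (SD, n = 2 each), both larger than the spread between arrays. Mcpt4 exceeded Ctsg by 0.18 ± 0.23 (SD, n = 2), which is within that spread.

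**Figure D3:**
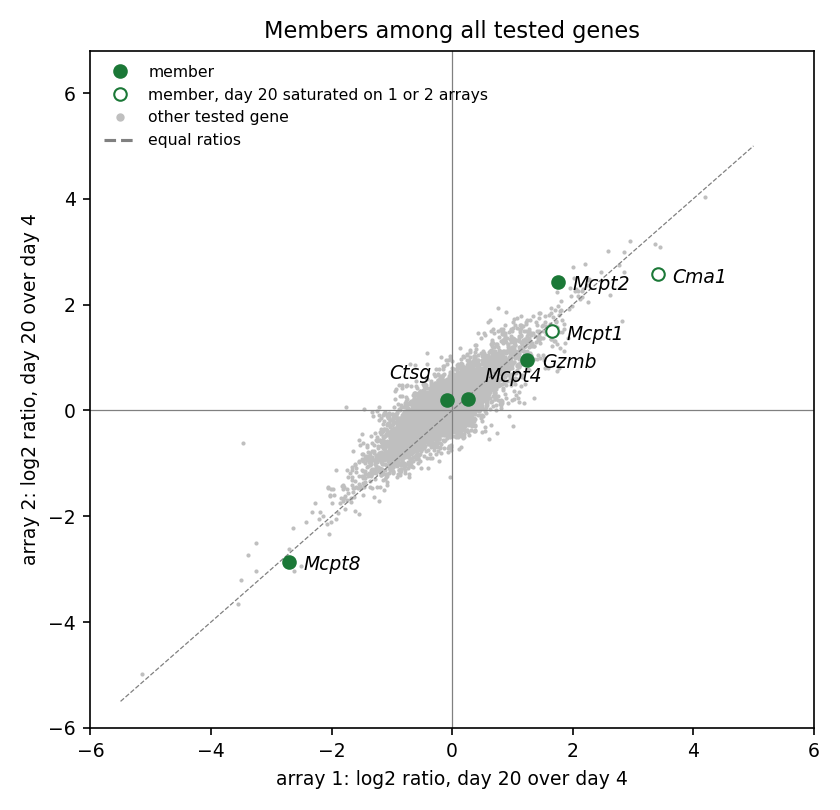
Log2 ratio of day 20 over day 4 on array 2 against array 1 for all 18073 genes tested (grey) and the members (green, open where a day 20 spot was saturated on 1 or both arrays), with the line of equal ratios dashed. Mcpt8 and Mcpt1 lie near the line, Cma1 lies below it at 3.41 and 2.57, and Mcpt2 lies above it at 1.75 and 2.43.

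In RefSeq's GRCm38.p6 order the protein-coding genes run Cma1, Cma2, Mcpt1, Mcpt2, Mcpt9, Mcpt4, Mcpt8, Ctsg, Gzme, Gzmd, Gzmg, Gzmn, Gzmf, Gzmc and Gzmb. Cma1, Mcpt1 and Mcpt2 at one end and Gzmb at the other were higher, while Mcpt4, Mcpt8 and Ctsg between them were not. A list of 10 other chymase and granzyme genes of the cluster had 6 with a named probe and 4 that could be tested, of which 1 was higher and 0 were lower, with a median log2 ratio of 0.00. Gzmd, a granzyme of mouse, was the gene that rose. Its normalized intensity was 693 and 893 at day 20, against 352 and 305 at day 4, and its log2 ratio was 1.26 ± 0.40 (SD, n = 2, limma adjusted p = 1.98e-05). Its neighbour Gzme had 0.02 ± 0.11, and Gzmc had -0.02 ± 0.04 and Gzmn -0.03 ± 0.11 (SD, n = 2 each), none of which passed. Their probes were dim at day 20, with Gzme at 69 and 91, Gzmc at 124 and 102, and Gzmn at 88 and 69. Gzmf was well above background in 2 of 4 channels and Gzmg in 0 of 4, so neither was tested, and Gzmd to Gzmg are close relatives whose shared signal was not tested.

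**Figure D4:**
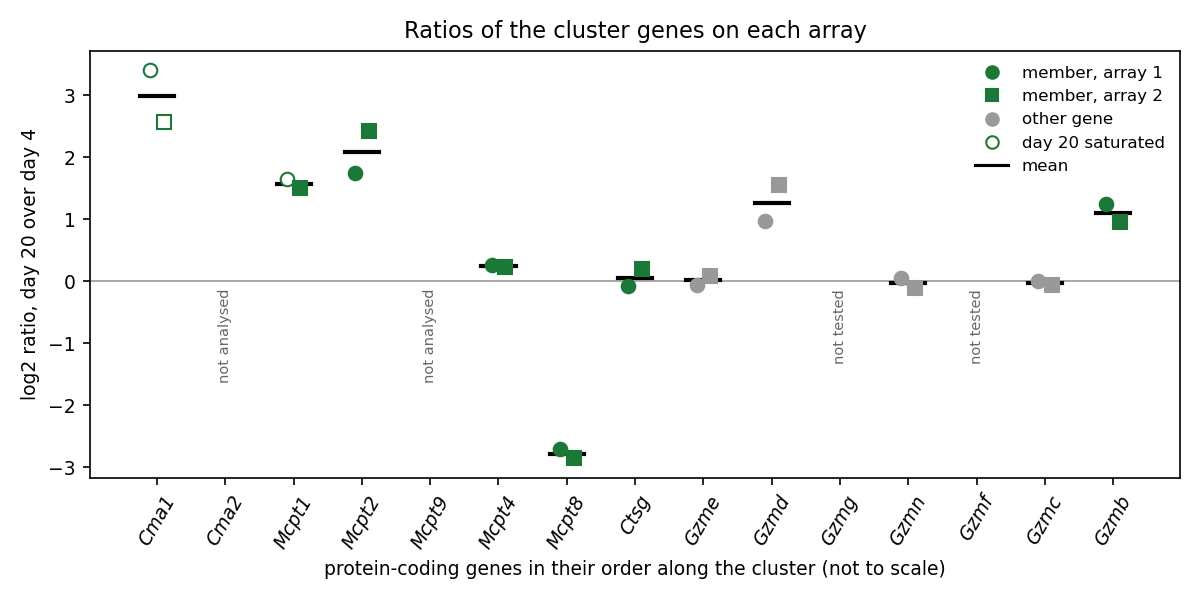
Log2 ratio of day 20 over day 4 on array 1 (circles) and array 2 (squares) for protein-coding genes in their order along the cluster, spaced evenly and not to scale, with members in green, other genes in grey, open symbols where the day 20 spot was saturated and bars at the mean. Cma1, Mcpt1, Mcpt2, Gzmd and Gzmb lie above 0 on both arrays, Mcpt8 lies near -2.78, and Mcpt4, Ctsg, Gzme, Gzmn and Gzmc lie within 0.26 of 0.

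Granule serine proteases outside the cluster moved in both directions. Of 13 listed, 9 were tested, 3 were higher and 3 were lower, with a median log2 ratio of -0.07. The tryptases rose: Tpsg1 had 1.50 ± 0.01 and Tpsb2 1.22 ± 0.08 (SD, n = 2 each), while Tpsab1, saturated at day 20 on both arrays, had a ratio of 2.26 ± 0.80 (SD, n = 2), which is a lower bound. The proteases that fell were Elane, Prtn3 and Gzma, given above. Gzmk had -0.15, Gzmm -0.01 and Prss8 -0.07, and they did not pass. The probes of Gzmm, at 92 and 95 at day 20, and Prss8, at 91 and 89, were dim.

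Genes that activate the precursors or hold the proteases in the granule moved in both directions. Of 18 listed, 16 were tested, 5 were higher and 4 were lower, with a median log2 ratio of -0.03. Srgn, the core protein of the granule proteoglycan, had 1.17 ± 0.18, Ndst2, which sulphates heparin, had 0.94 ± 0.38, and Ctsd, an aspartic protease of lysosomes, had 0.996 ± 0.47 (SD, n = 2 each). The cystatins Cst3, at 0.97 ± 0.17, and Cst7, at 0.84 ± 0.09 (SD, n = 2 each), inhibit cysteine cathepsins and were also higher. Of the cysteine cathepsins, Ctss had -3.60 ± 0.08 and Ctsl -2.26 ± 0.22 (SD, n = 2 each), and Ctsb was called lower at -0.35 ± 0.15 (SD, n = 2, limma adjusted p = 0.0494) but lost the call in 8 of 10 alternative settings (adjusted p up to 0.442). Ctsd lost its call in 2 settings and Ndst2 in 1. The fourth that was lower was Hdc. Ctsc, cathepsin C, which removes the leader of these proteases, was well above background in 2 of 4 channels and was not tested. Cpa3, the carboxypeptidase stored with the chymases, had a marked spot on 1 array, and with marked spots kept its ratio was 2.05 with saturated day 20 spots on both arrays.

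Among 7 tested inhibitors of serine proteases, of 14 listed, 3 were higher and 0 were lower, with a median log2 ratio of -0.01. Serpinb6a, an intracellular serpin, had 0.70 ± 0.16, Spint1, a Kunitz-type inhibitor, had 0.53 ± 0.19, and Serpinb1a, a serpin that inhibits cathepsin G and elastase, had 0.41 ± 0.14 (SD, n = 2 each). Serpinb9, which inhibits granzyme B, had -0.01 ± 0.07 (SD, n = 2) and did not pass. Its probe was dim, at 101 and 107 at day 20 against 105 and 104 at day 4. None of the 3 that rose passed with the scanner software's own ratios, where their adjusted p was 0.0543 for Serpinb6a, 0.0911 for Spint1 and 0.274 for Serpinb1a. Of 15 listed genes for proteins that chymases or granzymes cut, 9 were tested, and 1 was higher and 0 were lower, with a median of -0.02. That gene was F2r, a thrombin receptor, at 0.36 ± 0.13 (SD, n = 2, limma adjusted p = 0.0428), and it lost the call in 5 settings.

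Among 12 tested transcription factors of mast cells, basophils and neutrophils, 5 were higher and 0 were lower, with a median log2 ratio of 0.19. Those that rose were Bhlhe40 at 0.91 ± 0.15, Mitf at 0.89 ± 0.25, Stat5a at 0.89 ± 0.20, Tal1 at 0.80 ± 0.08 and Gata1 at 0.51 ± 0.31 (SD, n = 2 each). Gata1 lost its call in 3 settings, with adjusted p up to 0.142. Mitf is required for normal mast cell development. Runx1, at 0.29, and Spi1, at -0.10, did not pass. Of 10 tested genes of TGF-beta signalling and its targets, 3 were higher and 2 were lower, with a median of 0.10. Itgae, the integrin chain of mucosal mast cells and of intraepithelial lymphocytes, had 1.25 ± 0.36, Id2 had 0.62 ± 0.25 and Smad4, the shared signal carrier, had 0.47 ± 0.18 (SD, n = 2 each). Tgfbi, known as a gene that TGF-beta induces in other cells, was lower, at -1.82 ± 0.30 (SD, n = 2). Smad4 lost the call in 3 of the 10 alternative settings that allow a test, with adjusted p up to 0.133, and Id2 lost it in 2.

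For each member, the genes of most like pattern were taken as the 3 with the smallest distance between their pair of log2 ratios and the member's pair, over 2 arrays. The search covered the tested genes with a symbol, 8503 before the members were left out. With 2 points per gene and so many genes, a near gene is easily found, though none lay closer to Cma1 than 0.558. The distances from Cma1 on both arrays and from Mcpt1 on array 1 start from saturated values and describe the measured ratios only. For Mcpt1 they were Sytl2, which acts in granule exocytosis, at a distance of 0.0071, Cd55 at 0.130 and Pcsk2 at 0.139. For Mcpt2 they were Il4ra, an interleukin receptor chain, at 0.199, Rsrp1 at 0.236 and Htra1 at 0.341. The nearest genes of Cma1 were Ly6c1 at 0.558, Ly6a at 0.578 and Rprm at 0.942. For Gzmb they included Ddx5 at 0.0950 and the granule proteoglycan gene Srgn at 0.0981. For Mcpt8 they were Anxa2 at 0.201, Spp1 at 0.245 and the neutrophil granule gene Mpo at 0.573. For Mcpt4 they were Nat8f1, Gpr162 and St6galnac5 and for Ctsg Fbxo32, Usp29 and Cdx2, each at a distance of at most 0.0155.

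The direction of each called member was the same under 12 other processing choices, including each array alone. The log2 ratio ranged between 2.57 and 3.41 for Cma1, 1.75 and 2.43 for Mcpt2, 1.19 and 1.66 for Mcpt1, 0.81 and 1.25 for Gzmb, and -3.05 and -2.71 for Mcpt8. Mcpt4 ranged between 0.19 and 0.32 and passed the test under none of the 10 choices that allow one (lowest adjusted p 0.165).

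**Figure D5:**
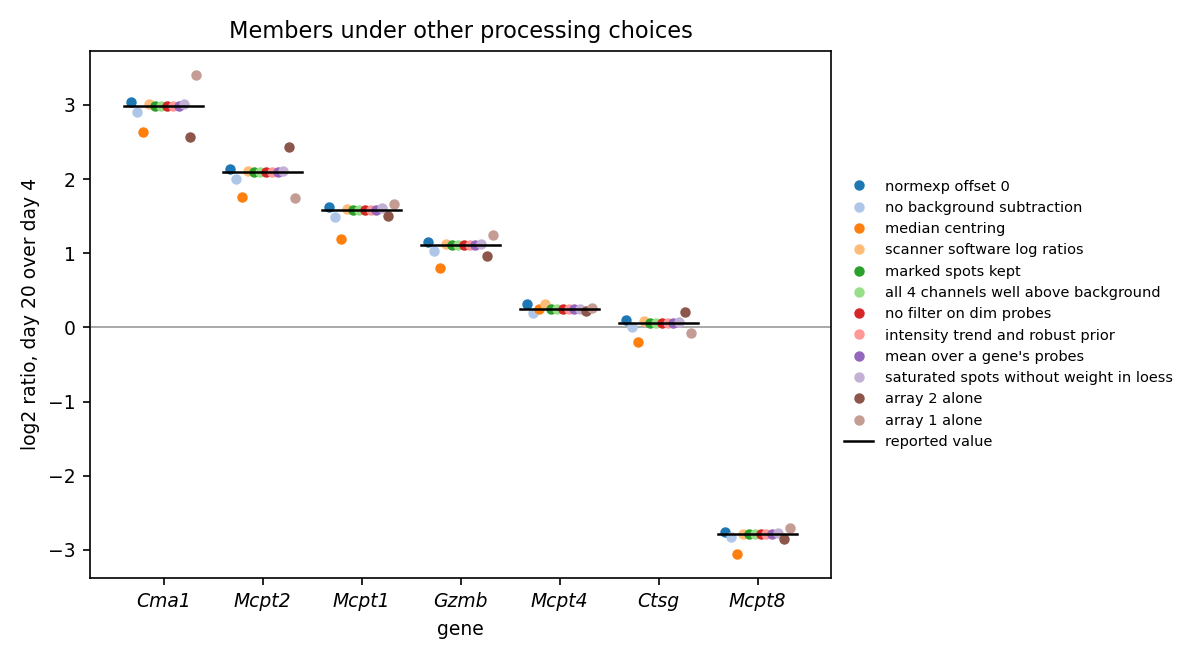
Log2 ratio of day 20 over day 4 of each member under 12 other processing choices (coloured points) and as reported (black bars). Points of Cma1 and Mcpt2 spread most when 1 array is used alone, median centring gives the lowest value of Mcpt1, Gzmb, Ctsg and Mcpt8, and Ctsg is the member whose sign differs between choices.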

How the data were processed

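RNA of day 20 and day 4 was compared on 2 two-colour arrays. Per the submitters' processing notes, the authors used Agilent Feature Extraction 7.5, and per the file headers array 2 was read with 7.5.1. Deposited scanner files hold raw intensity values per spot and dye, the mean signal and local background. They also hold log10 ratios of Cy5 over Cy3 that the authors' software made from its own background-subtracted and dye-normalized signals. The deposited matrix of the series holds the same log10 ratios in 22393 of 22393 rows at a tolerance of 1e-06. In the file of array 1, 313 Cy3 and 324 Cy5 background medians had become month names, as a spreadsheet does, and were read back with the month as the decimal digit, an assumption taken from the form of the other values.

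Ratios were computed with R 4.3.3, limma 3.58.1 and version 1.17.8 of the data.table package. Normexp (offset 50) corrected the background, and loess within each array followed, with control and outlier-marked spots at weight 0. The offset draws the ratios of dim probes towards 0. Marked spots were then left out, and array 2 was turned so that every ratio is day 20 over day 4. Channel intensities were scaled between arrays by Aquantile. Probes were named through RefSeq accessions (GRCm38.p6, 8947 of 20868 probes) or the symbol in their description, and the brightest probe stood for a gene name. A gene was tested if it was well above background in both channels of at least 1 day, which gave 18073 genes, 8503 with a symbol. The dye swap cancels a gene's dye effect in the mean, and the spread between arrays contains it. Mean ratios were tested against 0, two-sided, by limma's lmFit and eBayes, and called at a Benjamini-Hochberg adjusted p below 0.05. With 1 residual degree of freedom per gene, most of the variance estimate comes from limma's prior (SD 0.163 on 12.1 degrees of freedom). The number of arrays limits the precision.

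Members, gene lists and alternatives were chosen with earlier results of these data known, so no list is independent evidence. All members are named, genes of the lists are named where they passed, and 3 nearest genes are named per member. Named beyond that rule, with values seen, are the list genes that did not pass. A few listed genes are counted but not reported here by name. Promoters were aligned with Biopython 1.88. The fit was tested on simulated data with known changes.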

Additional observations from a re-analysis of the deposited data

How the results depend on the processing

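The calls of all 7 members were the same under the 10 alternatives that allow a test: 4 higher and 1 lower, with the highest adjusted p of a called member at 0.0237 (Gzmb, scanner software ratios). Ctsg, which passed under none, changed sign with median centring in place of loess (-0.20, adjusted p = 0.662). Giving saturated spots no weight in loess was chosen after seeing the data, and it moved Cma1 to 3.01 and Mcpt1 to 1.61. A single array gives a value with no test, so no count of genes was made without an array. No replicate block was fitted, since each array's ratio already sets day 20 against day 4 within the array.

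The background counts moved more. Of all genes, 1415 were higher and 1679 lower. With no background subtraction 834 were higher and 987 lower, with median centring 559 and 784, and with the scanner software's ratios 613 and 632. These settings also lost calls in the lists. Ctsb lost its call in all tested settings but 2, F2r in 5, and Gata1 and Smad4 in 3 each. With median centring 3 genes of granule storage were higher, in place of 5, as Ctsd (adjusted p = 0.131) and Ndst2 (0.0550) no longer passed, and Id2, Ms4a2 and Tph1 were lost too. The cause of these changes was not tested. Saturation limits Cma1, Tpsab1, Cpa3 and, on array 1, Mcpt1 to lower bounds, and Ctsc, Gzmf and Gzmg were too dim to test.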

Other observations

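A probe described on the array as mast cell protease-like, with the symbol Mcptl, belongs to no member, and its symbol is not in the RefSeq table used. It was singled out after its values were seen. Its normalized intensity was 46900 and 48644 in the day 20 channels, against 13398 and 11639 in the day 4 channels. The days did not overlap, and no spot was saturated. The log2 ratio was 1.81 on array 1 and 2.06 on array 2, a mean of 1.94 ± 0.18 (SD, n = 2, limma adjusted p = 1.25e-07). Which gene of the locus this probe reads was not tested.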
